A study of Mus musculus with 16 samples.

Results

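Acute-phase and clade A3 serpin genes were followed through RNA-seq of KPC1199 cells, a murine pancreatic ductal adenocarcinoma line derived from a KPC tumor (Cre under the Pdx promoter). The 10 members were Serpina3n, Serpina3f, Serpina3g, Serpina3i, Serpina3m, Hp, Lcn2, Saa1, Saa2 and Saa3. They were matched by gene symbol, and all 10 were found among the 56980 genes of the IFNγ experiment and among the 55414 of the untreated experiment. The members were chosen by their genotype and IFNγ log2 fold changes in these same libraries, so their differences in those contrasts are given as a description, without a test.

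The 16 libraries came from 2 experiments. In the untreated experiment there were 2 libraries of control-guide cells (sgCtrL) and 2 of cells whose guide targets Sin3B (Sin3Bsg1, labelled as a Sin3B knockout). The other, the IFNγ experiment, held 3 libraries each of sgCtrL and Sin3Bsg1 cells without IFNγ and 3 of each after 10 ng/ml IFNγ for 24 hours. All cells carried a lentiviral Cas9 and guide vector, a single Sin3B guide was sequenced, and whether replicates were separate cultures is not given in the sources used here, so p-values measure only the spread between these libraries, which may be technical. In bulk RNA, fewer cells expressing a gene and less RNA per cell cannot be told apart.

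Acute-phase proteins are secreted proteins, made mainly by the liver, whose levels change in inflammation. Their genes are classically driven by IL-6 through STAT3 and by IL-1 and TNF through NF-κB and C/EBP factors, and epithelial tumor cells can express several of them. Interferon-γ acts in part through short palindromic promoter elements called GAS. The mouse Serpina3 genes are a cluster of serine protease inhibitors related to human α1-antichymotrypsin, which expanded by duplication in rodents. Haptoglobin (Hp) binds free hemoglobin, lipocalin-2 (Lcn2) binds bacterial siderophores that carry iron, and the serum amyloid A proteins (Saa1, Saa2 and Saa3) are apolipoproteins of the acute-phase response.

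The 5 Serpina3 members lie on the plus strand of chromosome 12 within 200 kb (GRCm39). In order along the chromosome these are Serpina3f (chr12:104180772-104187388, 6 exons), Serpina3g (chr12:104202386-104208203, 5 exons), Serpina3i (chr12:104229363-104238677, 6 exons), Serpina3m (chr12:104304745-104361078, 4 exons) and Serpina3n (chr12:104372810-104380597, 5 exons). The 3 Saa members lie within 42.3 kb on chromosome 7, with Saa3 at chr7:46361422-46365576, Saa1 at chr7:46389916-46392547 and Saa2 at chr7:46401214-46403737. Hp is at chr8:110301759-110305804 and Lcn2 at chr2:32274645-32278264. All 10 are annotated as protein-coding.

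The 250 bases before the start of 8 members were taken from RefSeq (GRCm38.p6), and Hp and Serpina3m had no entry. They are shown for Serpina3f and Serpina3g, which were high only in the libraries with IFNγ, for their faint neighbour Serpina3i, for Serpina3n from the same cluster, which was lower with IFNγ, and for Lcn2 and Saa3. Capitals mark matches on either strand to the GAS motif TTCNNNGAA, the interferon-stimulated response element, the C/EBP motif TTGCNNAA and the NF-κB consensus.
Serpina3f, chr12:104214294-104214543, plus strand: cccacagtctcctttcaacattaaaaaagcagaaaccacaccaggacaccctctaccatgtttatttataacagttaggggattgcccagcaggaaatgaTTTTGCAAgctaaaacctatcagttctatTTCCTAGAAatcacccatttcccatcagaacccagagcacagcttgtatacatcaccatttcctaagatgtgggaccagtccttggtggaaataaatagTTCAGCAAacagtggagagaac
Serpina3g, chr12:104235897-104236146, plus strand: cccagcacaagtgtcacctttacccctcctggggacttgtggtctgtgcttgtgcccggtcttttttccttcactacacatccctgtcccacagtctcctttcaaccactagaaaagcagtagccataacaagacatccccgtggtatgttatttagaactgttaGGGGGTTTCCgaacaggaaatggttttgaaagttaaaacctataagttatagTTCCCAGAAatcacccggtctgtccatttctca
Serpina3i, chr12:104262872-104263121, plus strand: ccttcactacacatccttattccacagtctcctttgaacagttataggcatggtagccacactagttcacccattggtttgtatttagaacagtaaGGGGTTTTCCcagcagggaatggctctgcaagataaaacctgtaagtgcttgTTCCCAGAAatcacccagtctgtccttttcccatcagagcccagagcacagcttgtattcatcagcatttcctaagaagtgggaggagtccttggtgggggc
Serpina3n, chr12:104406458-104406707, plus strand: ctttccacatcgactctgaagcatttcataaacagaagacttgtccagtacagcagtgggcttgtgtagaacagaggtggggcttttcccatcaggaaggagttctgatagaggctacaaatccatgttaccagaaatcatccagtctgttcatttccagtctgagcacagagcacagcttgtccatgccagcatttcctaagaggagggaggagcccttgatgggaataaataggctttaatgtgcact
Lcn2, chr2:32387740-32387989, minus strand: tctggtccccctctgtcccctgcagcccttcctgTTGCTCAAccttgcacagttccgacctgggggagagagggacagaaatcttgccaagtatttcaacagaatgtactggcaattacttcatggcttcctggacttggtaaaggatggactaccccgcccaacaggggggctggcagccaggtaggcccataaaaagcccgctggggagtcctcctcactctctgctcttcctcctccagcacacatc
Saa3, chr7:46715677-46715926, minus strand: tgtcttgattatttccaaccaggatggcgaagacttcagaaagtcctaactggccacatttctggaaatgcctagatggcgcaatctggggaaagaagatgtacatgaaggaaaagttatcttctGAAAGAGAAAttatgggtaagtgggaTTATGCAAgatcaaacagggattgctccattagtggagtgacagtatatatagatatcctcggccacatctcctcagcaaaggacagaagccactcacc

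A GAS match was present in 3 of the 8 promoters, those of Serpina3f, Serpina3g and Serpina3i, beginning 121, 33 and 102 bases before the start. Serpina3f had a 2nd listed start, whose window is not shown, and the same match begins 210 bases before it. Of 32851 promoter windows of this length, 7.02% held the motif. The NF-κB consensus was found in Serpina3g and Serpina3i, 85 and 154 bases before the start, and in 3.9% of all windows. The C/EBP motif was found in Lcn2, Saa1, Saa2, Saa3 and Serpina3f and in 9.56% of all windows, and the interferon-stimulated response element in Saa3 and in 2.98%. These are matches of letters and not measured binding sites.

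The 25 bases that begin at the GAS match of Serpina3g were compared with the other 3 serpin promoters. The best ungapped window is given for each, with capitals at the bases that differ from Serpina3g.
Serpina3g: ttcccagaaatcacccggtctgtcc
Serpina3i: ttcccagaaatcacccAgtctgtcc
Serpina3n: ttAccagaaatcaTccAgtctgtTc
Serpina3f: ttccTagaaatcacccATtTCCCAT

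Counting from 1 at the 5′ end of the Serpina3g window, Serpina3i differed by G17A alone. Serpina3n differed by C3A, C14T, G17A and C24T, and C3A falls in the letters that the GAS motif fixes. Serpina3f differed at 9 of the 25 bases, of which C5T falls inside the motif at a position the motif leaves free.

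Total counts ran from 18128055 to 27056903 in the IFNγ experiment and from 29499733 to 32093704 in the untreated experiment. Sin3b was 33.6 to 39.4 CPM (counts per library, scaled to a common depth) in the 8 Sin3Bsg1 libraries and 80.3 to 95.5 CPM in the 8 sgCtrL libraries and the groups did not overlap. Irf1, Gbp2, Gbp3, Socs1 and Nlrc5, known IFNγ response genes, rose with IFNγ in both genotypes. The 7 epithelial markers summed to 3179 to 6397 CPM. The macrophage and leukocyte list summed to 25.5 to 56.3 CPM, most of it Mrc1, and the neutrophil list to 4.51 to 17.2 CPM, most of it Ly6g. Mrc1 was called higher in Sin3Bsg1 in the untreated experiment and with IFNγ (1.33-fold and 1.43-fold). Alb, Ttr, Adgre1, Ptprc, Lyz2, S100a8, S100a9, Ngp and Camp, further markers of liver cells, leukocytes and neutrophils, averaged at most 0.118 CPM in any group. The whole hepatocyte list summed to 0.376 to 1.82 CPM. Its 1 gene tested was called lower in Sin3Bsg1 without IFNγ (log2 -1.62) and lower with IFNγ in sgCtrL (log2 -1.84). Of the 2 neutrophil genes tested in the IFNγ experiment, 1 was called higher with IFNγ in each genotype. There, 1 was called lower in Sin3Bsg1 without IFNγ. The part of these genes in the results was not tested. Library sgCtrL with IFNγ replicate 1 stood apart, since the chi-square per gene averaged 23.2 and 19.5 between it and replicates 2 and 3 and 4.12 between those 2.

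Serpina3f and Serpina3g, the first of the members along chromosome 12, were found in quantity only in the libraries with IFNγ. Serpina3f was at 30.3, 27.5 and 25.9 CPM in sgCtrL and at 33, 31.3 and 34.2 CPM in Sin3Bsg1 with IFNγ. Without IFNγ its counts were 0, 0 and 0 in sgCtrL and 0, 2 and 0 in Sin3Bsg1, and all 4 untreated libraries held 0. Serpina3f therefore went from at or near no reads to a level ranked between 5205 and 6155 of all genes by TPM (a level per transcript length).

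Against a floor of 3 counts over the 3 control libraries, Serpina3f was at least 567-fold higher with IFNγ in sgCtrL cells (345-fold without sgCtrL replicate 2). In Sin3Bsg1 cells, where 2 counts were found without IFNγ, the ratio was 1190 with a 95% counting interval of 329 to 9830. It was 759 without Sin3Bsg1 replicate 1 and at least 542 without replicate 2, which held both counts. With IFNγ, the Sin3Bsg1 libraries were all above the sgCtrL libraries, by 0.24 ± 0.094 on the log2 scale (SE), or 1.18-fold. Intervals and floors cover counting error only.

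Serpina3g, which encodes an intracellular inhibitor of cathepsins known from activated lymphocytes, was at 21.2, 17.8 and 17.4 CPM in sgCtrL and at 17.3, 14.1 and 16.4 CPM in Sin3Bsg1 with IFNγ. Without IFNγ the counts were 0, 3.74 and 9 in sgCtrL and 0, 0 and 2 in Sin3Bsg1, and the untreated libraries held 0. Sin3Bsg1 was thus 7.7-fold lower without IFNγ (counting interval 1.74 to 70.2), with overlapping libraries. That ratio was 3.41 without sgCtrL replicate 3, 4.91 without Sin3Bsg1 replicate 1 and at least 3.49 without Sin3Bsg1 replicate 3. The rise with IFNγ was 6.43 ± 0.32 on the log2 scale (86.2-fold) in sgCtrL. It was 7.57 on the log2 scale without sgCtrL replicate 3, which held 9 of the 13 counts, and 5.92 without replicate 1. In Sin3Bsg1 the ratio was 577 (counting interval 160 to 4774), 368 without replicate 1 and at least 262 without replicate 3, which held both counts. With IFNγ the guide difference went the opposite way to Serpina3f, with Sin3Bsg1 lower by 0.24 ± 0.17 on the log2 scale (1.18-fold) and its highest library just under the lowest sgCtrL library. It was not called either, so no opposite effect of the guide is read from the pair.

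Serpina3i was at a far lower level and did not pass the filter on low counts. It held 7, 12 and 5.02 counts in sgCtrL and 8, 1 and 6.04 in Sin3Bsg1 with IFNγ, against 0, 0 and 0, and 0, 0 and 2 without. That is at least 7.12-fold higher in sgCtrL, and a ratio of 7.55 (counting interval 1.76 to 68.1) in Sin3Bsg1. Without sgCtrL replicate 2 the first was at least 4.33, and the second was 4.82 without Sin3Bsg1 replicate 1 and at least 3.42 without replicate 3. The Sin3Bsg1 libraries overlapped, since replicate 2 with IFNγ held 1 count and replicate 3 without IFNγ held 2. All 4 untreated libraries were at 0.

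**Figure D1:**
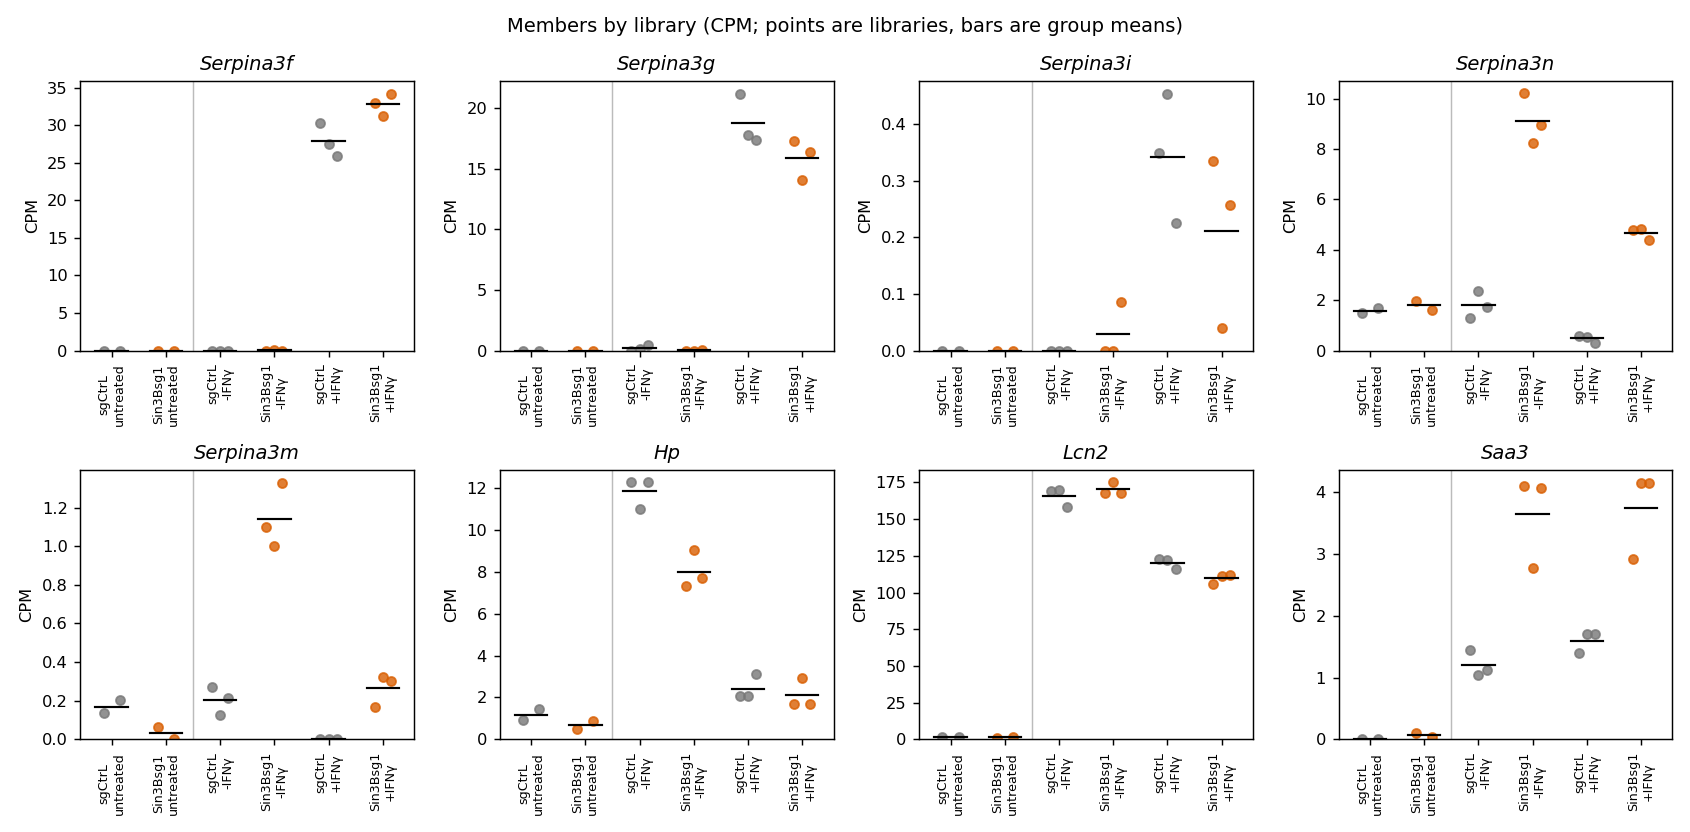
Levels in CPM on linear axes for the 8 members with more than 3 counts in any group. Each point is a library, each black bar a group mean, grey is sgCtrL and orange is Sin3Bsg1, and the vertical line separates the untreated experiment from the IFNγ experiment. Serpina3f and Serpina3g stand at 14.1 CPM or more with IFNγ and at 0.481 CPM or less elsewhere, Serpina3n, Serpina3m and Hp are highest without IFNγ in the IFNγ experiment, and Lcn2 and Hp are far lower in the untreated experiment.

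Serpina3n and Serpina3m, at the far end of the same cluster, had the reverse pattern, lower with IFNγ and higher in Sin3Bsg1. Serpina3n encodes a secreted inhibitor of proteases such as granzyme B, cathepsin G and elastase. Without IFNγ it was at 1.29, 2.38 and 1.71 CPM in sgCtrL and at 10.2, 8.22 and 8.94 CPM in Sin3Bsg1. With IFNγ it was at 0.596, 0.528 and 0.315 CPM in sgCtrL and at 4.8, 4.84 and 4.38 CPM in Sin3Bsg1. No group overlapped another, and the order from high to low was Sin3Bsg1 without IFNγ, Sin3Bsg1 with IFNγ, sgCtrL without IFNγ and sgCtrL with IFNγ.

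The guide difference in Serpina3n was 2.32 ± 0.20 on the log2 scale without IFNγ (4.99-fold) and 3.27 ± 0.25 with IFNγ (9.65-fold). IFNγ lowered it by 3.77-fold in sgCtrL (log2 -1.91 ± 0.28) and by 1.95-fold in Sin3Bsg1 (log2 -0.96 ± 0.18). The interaction of guide and IFNγ, built from the same libraries, was 0.95 ± 0.34. In the untreated experiment Serpina3n was at 1.48 and 1.67 CPM in sgCtrL and at 1.96 and 1.62 CPM in Sin3Bsg1. There the guide groups overlapped, and the difference was 0.19 ± 0.28 on the log2 scale. The guide difference in Serpina3n was thus seen in 1 of the 2 experiments, and because the tables were normalized apart no test joins them.

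Serpina3m followed Serpina3n at a far lower level. It held 5, 3 and 4 counts in sgCtrL and 29, 23 and 31 in Sin3Bsg1 without IFNγ, a difference of 2.50 ± 0.45 on the log2 scale (5.66-fold). With IFNγ it held 0, 0 and 0 counts in sgCtrL and 4, 8 and 7 in Sin3Bsg1. Against the floor, Sin3Bsg1 was at least 6.05-fold higher with IFNγ, and IFNγ left sgCtrL at least 4.49-fold lower (3.72 and 2.76 without sgCtrL with IFNγ replicate 2). In Sin3Bsg1 the change with IFNγ was -2.10 ± 0.42 on the log2 scale (4.28-fold lower). In the untreated experiment the order of the guides was turned around, with 4 and 6 counts in sgCtrL and 2 and 0 in Sin3Bsg1, a ratio of 5.32 lower with a counting interval of 1.13 to 50.

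**Figure D2:**
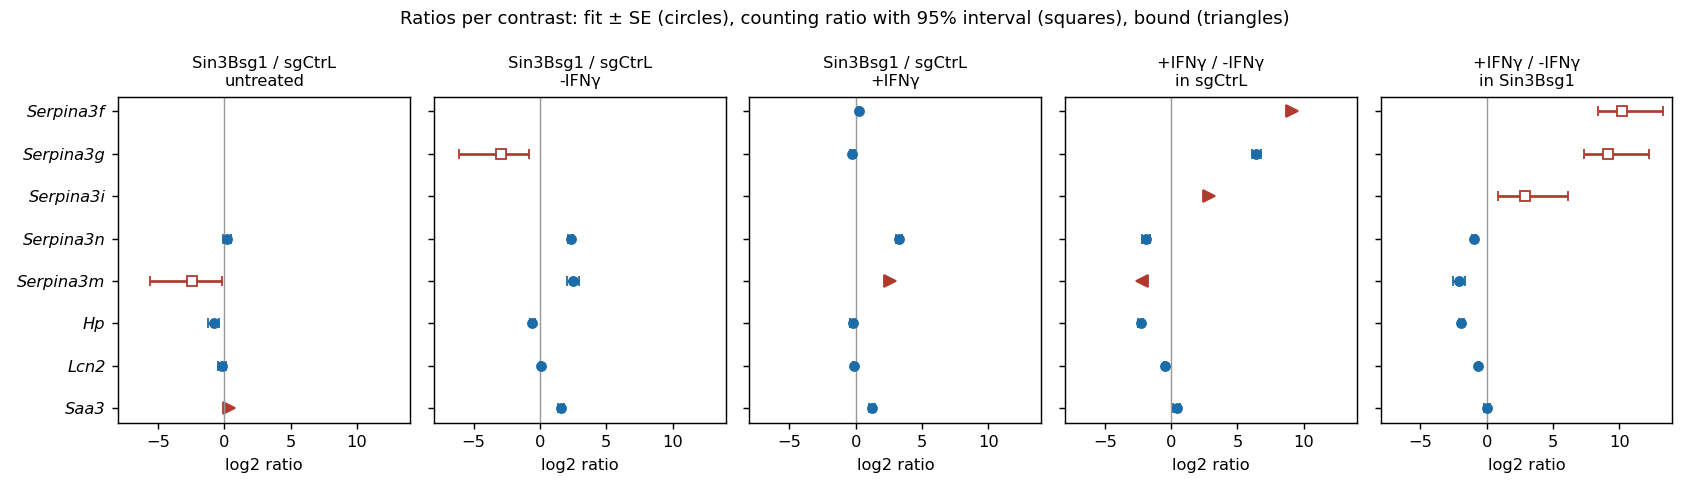
Log2 ratios for the 8 members in 5 contrasts, with zero as the vertical line. Blue circles are fitted log2 fold changes with SE bars, open red squares are ratios against a group of 1 to 3 counts with their 95% counting interval, and red triangles are bounds against a floor of 3 counts, pointing away from zero. The IFNγ panels separate Serpina3f, Serpina3g and Serpina3i on the right from Serpina3n, Serpina3m, Hp and Lcn2 on the left. Squares and triangles include genes that did not pass the filter, namely Serpina3i, and Serpina3m and Saa3 in the untreated panel. No ratio is drawn where both groups held 3 counts or fewer, or where both held more and the gene was not fitted.

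Of the 8 other Serpina3 genes and pseudogenes fixed for comparison, 1 feature named Serpina3h passed the filter, the annotated long non-coding RNA (ENSMUSG00000121484) at chr12:104214042-104220679, between Serpina3g and Serpina3i. It was at 0 in the 6 libraries without IFNγ and at 13 to 31 counts in the 6 with IFNγ, which is at least 15.4-fold higher for the sgCtrL cells and at least 20.1-fold for the Sin3Bsg1 cells. It passed the filter only through the libraries with IFNγ. Downstream of Serpina3i, Serpina3j and Serpina3k, were at 0 in all 16 libraries.

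Near-identical sequence limits how far these genes can be told apart. Of the distinct 50-base windows in the transcripts of Serpina3g, 38.6% also occur in another gene's transcripts, for the most part those of Gm56487, a pseudogene annotated inside Serpina3g on the same strand. The share was 10.4% for Serpina3f, 8.22% for Serpina3m, 8.06% for Serpina3i, 3.3% for Serpina3n, 27.2% for Serpina3h, 28.8% for Saa1, 32% for Saa2 and 3.61% for Saa3. Most of the Serpina3h share, 25.2% of its windows, was with the other annotated entry of that name, a pseudogene inside its span. Hp and Lcn2 shared none. Deposited values that were not whole numbers occurred in Serpina3f (3 of 16 libraries), Serpina3g (4), Serpina3i (2) and Saa3 (4) and in no library for Serpina3n, Serpina3m, Hp and Lcn2. The annotated span of Serpina3m also overlaps part of Serpina3k (chr12:104303391-104314397) and holds the pseudogene Serpina3l-ps.

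Hp was the member that fell most steeply with IFNγ among those fitted in both genotypes without a group at 0. It was at 12.3, 11 and 12.3 CPM in sgCtrL and at 7.31, 9.04 and 7.69 CPM in Sin3Bsg1 without IFNγ. With IFNγ it was at 2.09, 2.08 and 3.11 CPM in sgCtrL and at 1.67, 2.95 and 1.67 CPM in Sin3Bsg1. The change with IFNγ was -2.29 ± 0.20 on the log2 scale in sgCtrL (4.89-fold lower) and -1.92 ± 0.20 in Sin3Bsg1 (3.8-fold lower), with no overlap in either.

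Hp was also the member that was lower in Sin3Bsg1 in both experiments, without overlap in the untreated experiment and without IFNγ. Without IFNγ the guide difference was -0.57 ± 0.17 on the log2 scale (1.48-fold lower) with no overlap. With IFNγ it was -0.20 ± 0.23, and the groups overlapped (0.016 without sgCtrL replicate 3). In the untreated experiment Hp was at 0.907 and 1.43 CPM in sgCtrL and at 0.467 and 0.874 CPM in Sin3Bsg1, a difference of -0.80 ± 0.42. The difference without IFNγ lost its call when sgCtrL replicate 1, 2 or 3 or Sin3Bsg1 replicate 1 or 3 was left out.

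Lcn2 was by far the most abundant member in the IFNγ experiment. Without IFNγ it was at 169, 170 and 158 CPM in sgCtrL and at 168, 175 and 168 CPM in Sin3Bsg1. With IFNγ it was at 123, 122 and 116 CPM in sgCtrL and at 106, 111 and 112 CPM in Sin3Bsg1. IFNγ lowered Lcn2 in both genotypes without overlap, by 1.38-fold in sgCtrL (log2 -0.46 ± 0.046) and by 1.55-fold in Sin3Bsg1 (log2 -0.63 ± 0.046). The guide difference was 0.041 ± 0.046 without IFNγ, where the groups overlapped, and -0.13 ± 0.046 with IFNγ, where they did not. In the untreated experiment Lcn2 was at 1.68 and 1.63 CPM in sgCtrL and at 1.18 and 1.78 CPM in Sin3Bsg1, overlapping.

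Saa3, a serum amyloid A form made also outside the liver, differed by guide in both IFNγ states. It was at 1.45, 1.04 and 1.12 CPM in sgCtrL and at 4.11, 2.78 and 4.08 CPM in Sin3Bsg1 without IFNγ. With IFNγ it was at 1.39, 1.7 and 1.71 CPM in sgCtrL and at 2.92, 4.16 and 4.16 CPM in Sin3Bsg1. The Sin3Bsg1 libraries lay above the sgCtrL libraries in both states, by 3.05-fold without IFNγ (log2 1.61 ± 0.24) and by 2.33-fold with IFNγ (log2 1.22 ± 0.23). The libraries with and without IFNγ overlapped in both genotypes, with differences of 0.42 ± 0.26 in sgCtrL and 0.032 ± 0.21 in Sin3Bsg1. Among untreated libraries Saa3 held 0 and 0 counts in sgCtrL and 3.14 and 1 in Sin3Bsg1.

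Saa1 and Saa2, the liver forms that circulate in the acute phase, were at or near 0. Saa1 held 1 count and Saa2 held 2 counts in all, each in Sin3Bsg1 cells without IFNγ, and no fold is given for them.

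In the IFNγ experiment 7 of the 10 members were tested, of which Serpina3f and Serpina3g passed only through the libraries with IFNγ and Serpina3m only through Sin3Bsg1 without IFNγ. Serpina3n, Hp and Lcn2, 3 of the 10, were tested in the untreated experiment. Among those tested without IFNγ, 3 members were called higher and 1 lower in Sin3Bsg1, where 7.89% of all genes tested were called higher and 9.32% lower (17.2% in all). With IFNγ, 3 were called higher and 0 lower, against 8.62% and 7.89% of all genes (16.5%). With IFNγ against without, 2 were called higher and 4 lower in each genotype, against 15.7% and 14.5% of all genes in sgCtrL (30.2%) and 16.1% and 12.3% in Sin3Bsg1 (28.4%). Untreated, 0 of 3 were called, where 15.1% of all genes were higher and 16% lower (31.2%). For the interaction 0 of 7 were called, where 0.0805% of all genes were higher and 0.0335% lower (0.114%). Libraries did not overlap for 3 members higher and 1 lower in Sin3Bsg1 without IFNγ (18.3% and 20.9% of all genes), for 4 and 2 with IFNγ (15.4% and 14.9%), and for 0 and 1 untreated (31.9% and 31.4%). With IFNγ against without they did not overlap for 2 higher and 4 lower in each genotype, against 20.8% and 20.7% of all genes in sgCtrL and 24.3% and 21.1% in Sin3Bsg1. Since these contrasts chose the members, nothing is read from the counts. The contrasts share control libraries and are not independent of each other.

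The levels per length (TPM) put Lcn2 first in 6 of 6 groups. In sgCtrL without IFNγ the mean level was 400 TPM for Lcn2, 19.3 for Hp, 4.77 for Saa3 and 1.9 for Serpina3n, and no neighbours in that order overlapped. In Sin3Bsg1 without IFNγ the order was Lcn2 at 417, Saa3 at 14.6, Hp at 13.2 and Serpina3n at 9.81, where Saa3 and Hp overlapped. With IFNγ Serpina3f (25.8 TPM in sgCtrL, 30.4 in Sin3Bsg1) and Serpina3g (20.1 and 17.1) took the places after Lcn2 (274 and 252). No library overlapped between Lcn2, Serpina3f and Serpina3g in either genotype. Untreated, the highest was Lcn2 at 3.75 TPM in sgCtrL and 3.35 in Sin3Bsg1, followed by Hp at 1.79 and Serpina3n at 1.56 in sgCtrL, which overlapped, and every other member averaged at most 0.24 TPM.

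The clearest contrast between the experiments was therefore one of level without IFNγ. Lcn2 averaged 1.66 CPM in sgCtrL of the untreated experiment and 166 CPM in sgCtrL without IFNγ of the other, a ratio of 100, and 1.48 against 170 CPM in Sin3Bsg1, a ratio of 115. With 0.1 CPM added to both levels, that ratio ranked 8th of 13125 genes in sgCtrL and 5th of 13157 in Sin3Bsg1, counting genes of at least 1 CPM in either experiment. Hp averaged 1.17 against 11.9 CPM in sgCtrL, a ratio of 10.2, and 0.67 against 8.01 CPM in Sin3Bsg1, a ratio of 12. Serpina3n was 1.57 against 1.79 CPM in sgCtrL and 1.79 against 9.1 CPM in Sin3Bsg1, so its level differed between the experiments in Sin3Bsg1 cells, while the sgCtrL libraries of the 2 experiments overlapped.

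Of the members with at least 1 CPM in either experiment, 3 of 4 in sgCtrL and 5 of 5 in Sin3Bsg1 were at least 4-fold higher in the IFNγ experiment without IFNγ, where 2.25% and 2.45% of all such genes were. None of the members was 4-fold lower there, as 2.43% of all such genes were in sgCtrL and 2.43% in Sin3Bsg1. Saa3 and Serpina3m reached 1 CPM only there, and so did Hp in Sin3Bsg1, so under that filter they could only come out higher. The members were chosen by contrasts that used these libraries without IFNγ, so nothing is read from their counts beside those shares. Among the other acute-phase proteins, 4 of 12 in sgCtrL and 2 of 10 in Sin3Bsg1 were at least 4-fold higher in the IFNγ experiment without IFNγ. These included Lbp, which presents bacterial lipopolysaccharide (5.05 against 49.5 CPM in sgCtrL), and Steap4, a metalloreductase (0.118 against 9.8 CPM). Ceruloplasmin (Cp), the copper ferroxidase, was at 164 against 808 CPM in the same comparison. Steap4 in both genotypes and A2m in sgCtrL reached 1 CPM only in the IFNγ experiment. Under the filter these too could only come out higher. Of the genes with at least 1 CPM, none of 14 in the IL-6 family list and 13 in the IL-1/TNF/IL-17 list passed 4-fold in either direction. Nor did any in the C/EBP list, of 8 in sgCtrL and 9 in Sin3Bsg1. As only 2.25% and 2.45% of all such genes were higher and 2.43% lower, nothing is read from these counts. Il6ra (ratios 2.6 and 3.54 in sgCtrL and Sin3Bsg1) and Clcf1 (0.291 and 0.351) came nearest. The 4-fold rule used ratios with 0.1 CPM added to both levels. Of the IFNγ response genes, Nlrc5 was past it in sgCtrL (0.0678 against 1.95 CPM, ratio 12.2 with 0.1 added). In Sin3Bsg1 these were Gbp2 (1.72 against 11.2 CPM, ratio 6.2), Gbp3 (0.192 against 1.59 CPM, 5.79) and Nlrc5 (0.0479 against 1.02 CPM, 7.56). All were higher in the IFNγ experiment, in libraries without IFNγ, and the untreated levels of Nlrc5 and Gbp3 were near 0. Cd163 was higher there in both genotypes (ratios 4.41 and 5.5 with 0.1 added), as the 1 of 7 partners and receptors past 4-fold. Cd163, Nlrc5 and Gbp3 likewise reached 1 CPM only in the IFNγ experiment and could only come out higher.

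These levels come from tables normalized apart, and culture, date and sequencing run cannot be told apart from the experiment, so the ratios carry no test. The fibroblast list moved in the same direction, with a summed level of 100 to 101 CPM in untreated sgCtrL and 261 to 268 CPM in sgCtrL without IFNγ, and of 30.5 to 33.4 and 223 to 234 CPM in Sin3Bsg1. Its part in the result was not tested. Most of that sum was Pdgfra, while Col1a2, Dcn, Lum, Postn and Fap averaged at most 0.591 CPM in any group. The epithelial list moved the other way, from 4730 to 4753 CPM in untreated sgCtrL to 3179 to 3209 CPM, and from 6351 to 6397 CPM to 3420 to 3533 CPM in Sin3Bsg1. The neutrophil list, whose cells store Lcn2, summed to 5.41 to 6.14 CPM and to 9.4 to 10.7 CPM in sgCtrL. In Sin3Bsg1 its sums were 4.51 to 5.44 CPM and 5.52 to 7.72 CPM. Most of it was Ly6g, with S100a8, S100a9, Ngp and Camp at or near 0. The macrophage and leukocyte list was lower in the IFNγ experiment. It went from 44.1 to 44.2 CPM to 33.5 to 36.3 CPM in sgCtrL. In Sin3Bsg1 it went from 55.9 to 56.3 CPM to 36.7 to 38.9 CPM.

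**Figure D3:**
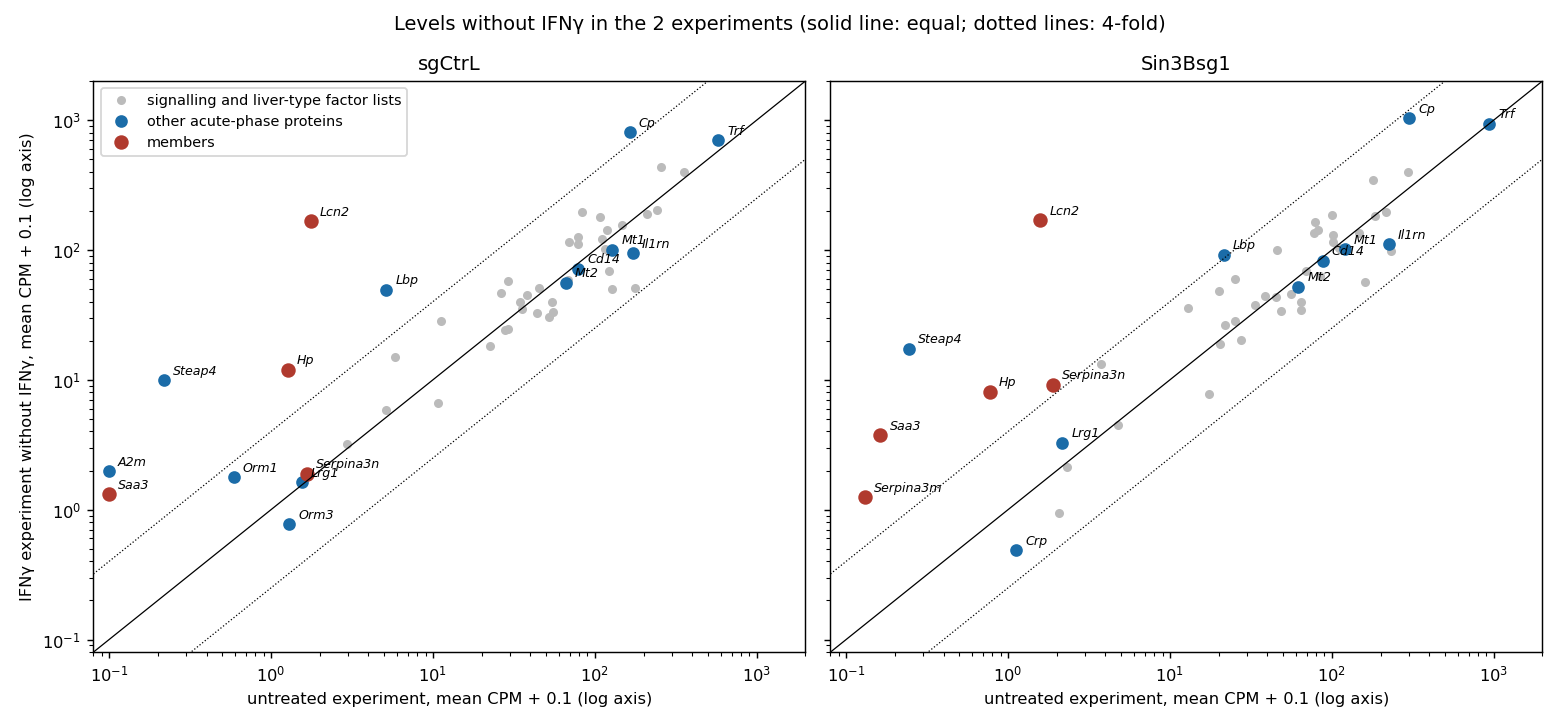
Mean CPM + 0.1 of each gene in the untreated experiment (x axis) and in the IFNγ experiment without IFNγ (y axis), both on log axes, for sgCtrL (left) and Sin3Bsg1 (right). Red points are members, blue points other acute-phase proteins and grey points the signalling and liver-type factor lists, with at least 1 CPM in either experiment, the solid line marks equal levels and the dotted lines 4-fold. Lcn2 lies farthest above the line among the members (1.66 against 166 CPM in sgCtrL), and Lbp and Steap4 lie above the upper dotted line in both panels.

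The other acute-phase proteins were then compared by the same contrasts. Their list was chosen with earlier results of these data known, so the calls and p-values of its genes are given as a description. Of the 28 on the list, 13 passed the filter in the IFNγ experiment and 12 in the untreated experiment. Without IFNγ 6 were higher and 1 lower in Sin3Bsg1, with IFNγ 6 were higher and 2 lower, and in the untreated experiment 7 were higher and 2 lower. The shares of all genes higher and lower were 7.89% and 9.32%, 8.62% and 7.89%, and 15.1% and 16% in that order. With IFNγ against without, 2 rose and 7 fell in sgCtrL, and 2 rose and 6 fell in Sin3Bsg1. There the shares of all genes were 15.7% and 14.5% in sgCtrL and 16.1% and 12.3% in Sin3Bsg1. The median log2 fold change of the list was 0.24 and 0.34 between the guides without and with IFNγ and 0.45 in the untreated experiment, and -0.20 and -0.29 with IFNγ in sgCtrL and Sin3Bsg1, where the median of all genes lay between -0.009 and 0.0052 in each of these 5 contrasts.

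Lbp rose in Sin3Bsg1 cells in all 3 guide contrasts, by 4.25-fold in the untreated experiment (log2 2.09 ± 0.10, adjusted p = 1.74e-10), by 1.85-fold without IFNγ (adjusted p = 4.1e-08) and by 1.72-fold with IFNγ (adjusted p = 1.92e-07, edgeR quasi-likelihood test with Benjamini-Hochberg adjustment). Transferrin (Trf), the iron carrier of plasma, rose by 1.62-fold, 1.34-fold and 1.5-fold in the same order, and Cp by 1.83-fold, 1.28-fold and 1.27-fold. Steap4 rose by 1.75-fold and 1.68-fold without and with IFNγ. All 4 fell with IFNγ in both genotypes, Steap4 by 2.18-fold in sgCtrL and 2.27-fold in Sin3Bsg1, Trf by 1.57-fold and 1.4-fold, Cp by 1.23-fold and 1.24-fold, and Lbp by 1.13-fold and 1.22-fold. The call for Lbp in sgCtrL was lost without sgCtrL replicate 2, or sgCtrL with IFNγ replicate 2 or 3. Of the 7 epithelial markers, 7, 4 and 6 were also called higher in Sin3Bsg1 (untreated, without and with IFNγ), and their part in these differences was not tested.

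Lrg1, a leucine-rich glycoprotein induced by IL-6, fell furthest with IFNγ, with log2 fold changes of -4.31 ± 0.62 in sgCtrL and -4.61 ± 0.52 in Sin3Bsg1 (adjusted p = 6.11e-05 and 4.56e-06, edgeR quasi-likelihood test, Benjamini-Hochberg). Its mean level without IFNγ was only 1.53 and 3.18 CPM, so after such falls few reads were left with IFNγ and the folds are imprecise. The fold in Sin3Bsg1 ran from -5.60 without Sin3Bsg1 with IFNγ replicate 3 to -4.05 without replicate 2 on the log2 scale. Mt2, a metal-binding metallothionein, rose with IFNγ by 2.24-fold and 2.71-fold. A2m, a protease inhibitor of plasma, was lower in Sin3Bsg1 by 2.44-fold without and 2.28-fold with IFNγ, the opposite of Serpina3n. Il1rn, the IL-1 receptor antagonist, fell by 1.7-fold in sgCtrL and by 2.36-fold in Sin3Bsg1. Its guide difference was 0.24 ± 0.062 without IFNγ and -0.24 ± 0.066 with IFNγ, calls that leaving out 1 library could end, and the interaction was -0.48 ± 0.09 (adjusted p = 0.0651, edgeR quasi-likelihood test, Benjamini-Hochberg).

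**Figure D4:**
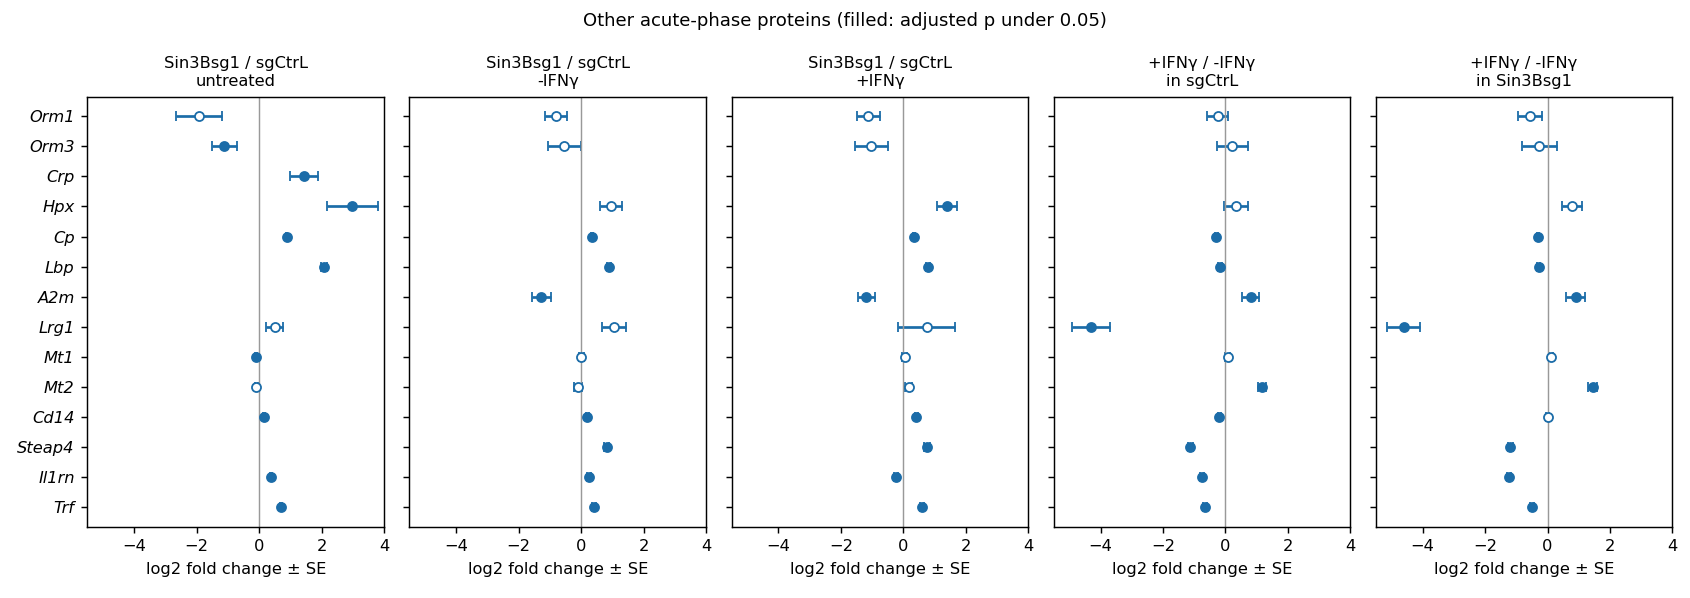
Fitted log2 fold changes with SE bars for the other acute-phase proteins that passed the filter, in the 3 guide contrasts and the 2 IFNγ contrasts, on a common axis. Filled circles passed an adjusted p of 0.05 and open circles did not. Lbp, Cp and Trf lie to the right in every guide panel and to the left in both IFNγ panels, and Lrg1 lies farthest to the left with IFNγ.

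The genes of the pathways that classically drive this group were then counted in each contrast. Of the 15 IL-6 family genes tested in the IFNγ experiment, 2 rose and 2 fell with IFNγ in sgCtrL, and 2 rose and 1 fell in Sin3Bsg1. The share of all genes called in either direction was 30.2% in sgCtrL and 28.4% in Sin3Bsg1. Stat3 rose by 1.18-fold and 1.29-fold, and Socs3, its feedback inhibitor, fell by 1.17-fold and 1.14-fold. Between the guides 1 was higher and 4 lower without IFNγ, 0 and 3 with IFNγ, and 3 and 7 of 14 in the untreated experiment. In that order 17.2%, 16.5% and 31.2% of all genes were called in either direction. The receptor subunits Osmr and Lifr were lower in Sin3Bsg1 in all 3 guide contrasts, Osmr by 1.72-fold in the untreated experiment, 1.27-fold without IFNγ and 1.36-fold with IFNγ. Il6 itself averaged at most 0.502 CPM in any group, and Osm was at 0.

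Of the 13 genes of the IL-1, TNF and IL-17 arm, 4 rose and 3 fell with IFNγ in each genotype. The share of all genes called was 30.2% in sgCtrL and 28.4% in Sin3Bsg1. Nfkbiz, a coactivator needed for Lcn2 induction in many cells, rose by 1.16-fold and 1.23-fold, whereas the inhibitor Nfkbia fell by 1.33-fold and 1.21-fold. Between the guides 3 were higher and 2 lower without IFNγ, 1 and 2 with IFNγ, and 0 and 4 in the untreated experiment. In that order 17.2%, 16.5% and 31.2% of all genes were called. Il1b averaged at most 0.0168 CPM and Tnf at most 0.25 CPM in any group.

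Of the 9 C/EBP and liver-type factors tested, 3 rose and 3 fell with IFNγ in each genotype. The share of all genes called was 30.2% in sgCtrL and 28.4% in Sin3Bsg1. Hnf4a, a nuclear receptor of hepatic and gut epithelium, was higher in Sin3Bsg1 by 1.82-fold in the untreated experiment, 1.94-fold without IFNγ and 2.27-fold with IFNγ, and fell with IFNγ by 1.51-fold in sgCtrL and 1.3-fold in Sin3Bsg1. Cebpa was lower in Sin3Bsg1 by 1.61-fold, 1.31-fold and 1.6-fold in the same order. Cebpd fell with IFNγ by 1.23-fold and 1.35-fold. Cebpb rose with IFNγ in sgCtrL by 0.96 ± 0.24 on the log2 scale, and by 0.60 without sgCtrL with IFNγ replicate 1. In all, 3 factors were higher and 1 lower in Sin3Bsg1 without IFNγ, 3 and 2 with IFNγ, and 5 and 3 in the untreated experiment. In that order 17.2%, 16.5% and 31.2% of all genes were called.

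Binding partners and target proteases of these proteins were compared last. Of 11 partners and receptors, 7 passed the filter in the IFNγ experiment. With IFNγ 1 was higher and 4 lower in sgCtrL, and 1 and 2 in Sin3Bsg1, where 30.2% and 28.4% of all genes were called. Slc22a17, the receptor of Lcn2, averaged 4 CPM without and 2.22 CPM with IFNγ in sgCtrL, a fall of 1.78-fold, and Tlr2, which serum amyloid A can engage, rose by 1.62-fold in sgCtrL and 2.03-fold in Sin3Bsg1. Cd163, the haptoglobin-hemoglobin receptor of macrophages, averaged at most 1.15 CPM. Of the 9 proteases on the list 4 passed the filter in the IFNγ experiment. Cathepsin B (Ctsb) averaged 472 to 585 CPM over the 6 groups, while Gzmb averaged at most 0.667 CPM. Between the guides, 0 partners were higher and 2 lower without IFNγ, 0 and 0 with IFNγ and 0 and 2 in the untreated experiment. For the proteases the counts were 0 and 2, 1 and 0, and 0 and 1. In the same order 17.2%, 16.5% and 31.2% of all genes were called.

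For members averaging at least 5 CPM over the 12 libraries, the 3 genes closest in pattern over the 4 group means were found by the root mean square difference of centred log2(CPM + 1) values. For Serpina3f these were Ifit3 (0.0633), Ifi44 (0.151) and Apol9b (0.166), and for Serpina3g they were Oas3 (0.104), Gm5970 (0.12) and Ifit1 (0.142). For Hp they were Abca8a (0.155), Penk (0.174) and Krt79 (0.198), and for Lcn2 Rab6b (0.0137), Gchfr (0.0226) and Tmem86a (0.0232). With 0.1 in place of 1 added, 0 of the 3 genes stayed for Serpina3f and for Serpina3g, 2 for Hp and 1 for Lcn2, so the names for the first pair depend on that choice. Serpina3n was below 5 CPM and was not included.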

How the data were processed

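RNA-seq of KPC1199 cells was analysed from 2 tables of estimated counts per gene that the authors deposited without normalization, 1 for each experiment. The labels name fastp, HISAT2, StringTie and DESeq2 and the build mm39, whereas the study's methods name mm9, HISAT2 and featureCounts on unique reads, and the versions, annotation and strand setting are not given in the sources used here. The lacZ-named columns were assigned to sgCtrL by elimination, the remaining columns being named for the Sin3B guide. For the untreated libraries, 324 features without a gene, 0.615 to 0.677% of counts, were left out.

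Counts were rounded and tested with edgeR 4.0.16 (R 4.3.3; TMM, filterByExpr, glmQLFit and glmQLFTest, two-sided), each table apart, with 1 mean per group and Benjamini-Hochberg adjustment over all genes tested (14589 untreated, 14913 IFNγ) at a threshold of 0.05. CPM use TMM library sizes, and TPM were computed from the deposited gene lengths. The deposited columns of group means were not used. The biological coefficient of variation was 2.84% and 6.78%. A floor of 3 counts was set over the libraries of a group. Coordinates are from GENCODE (GRCm39) and promoters from RefSeq (GRCm38.p6), and neither was converted. The fits were tested on simulated data first. The members, the 8 gene lists and the 6 lists of cell type markers were chosen with earlier results of these data known. Genes named are the members, Sin3b, the lists and the 3 most similar genes for each member of at least 5 CPM. Alternatives were DESeq2 1.42.0, other normalizations and filters, a replicate block, fits on only the groups compared and leaving out each library. Tables were made with Python 3.11.15. Some items are not reported here.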

Additional observations from a re-analysis of the deposited data

Results flagged for a closer look

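Serpina3m is singled out because its guide difference had opposite directions in the 2 experiments, with no overlap between the guides in either. It held 10 counts in sgCtrL and 2 in Sin3Bsg1 over the untreated libraries, and 12 counts in sgCtrL and 83 in Sin3Bsg1 over the libraries without IFNγ of the other experiment. The difference between the experiments was not tested, and the untreated counts are few. Without Sin3Bsg1 replicate 1, which held both counts, the untreated libraries were at least 1.74-fold lower in Sin3Bsg1, and without replicate 2 the ratio was 2.71 lower.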

How the results depend on the processing

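Depth limits Serpina3i, Serpina3m, Saa1 and Saa2, whose groups held 83 counts or fewer, and groups of 2 or 3 libraries limit every value. No direction of a called member or list gene was reversed under any alternative run. With at least 10 counts required in every library, 2 members were called between the guides without IFNγ, 1 with IFNγ, and 2 in each IFNγ contrast, because Serpina3f, Serpina3g, Serpina3m and Serpina3n were then no longer tested, and 0 calls remained for the other Serpina3 genes. Fitting only the groups compared gave 3995 genes called between the guides without IFNγ and 1500 with IFNγ, against 2567 and 2463, and Serpina3m lost its calls with IFNγ and in sgCtrL. The interaction, with 17 genes called, had 32 by DESeq2, 115 without the low-count filter and between 1 and 33 when a library was left out, the most without sgCtrL with IFNγ replicate 1, and 0 members in each of these. Without that library Serpina3f was called higher in Sin3Bsg1 with IFNγ. Serpina3g was called lower in Sin3Bsg1 without IFNγ by DESeq2, without the filter and without sgCtrL replicate 1, and Serpina3i was called higher with IFNγ in sgCtrL without the filter. Scaling by library totals moved the calls with IFNγ from 2344 higher and 2164 lower to 1644 and 3091 in sgCtrL, and from 2396 and 1836 to 1546 and 3046 in Sin3Bsg1. Same-numbered replicates did not deviate together (correlations from -0.16 to 0.26 in the IFNγ experiment and -0.01 in the untreated). With the replicate block, 4671, 2511 and 2389 genes were called between the guides (untreated, without and with IFNγ), 4400 and 4207 with IFNγ in sgCtrL and Sin3Bsg1 and 13 for the interaction, with no member call changed. By CPM in place of TPM, Serpina3n and Saa3 changed places in sgCtrL without IFNγ, Serpina3n passed Hp in untreated sgCtrL and Lcn2 in untreated Sin3Bsg1, the order of Saa3, Hp and Serpina3n was turned around in Sin3Bsg1 without IFNγ, Serpina3g passed Serpina3m in sgCtrL without IFNγ, and with IFNγ Saa3 fell behind Hp in sgCtrL and behind Serpina3n in Sin3Bsg1.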
